A study of Mus musculus with 16 samples.

Results

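The genes described here are 35 subunits of glutamate receptors and GABA-A receptors, out of 49671 genes in the count tables. They were chosen by name, as rows whose Ensembl identifiers map to the listed receptor genes in GRCm38. The set holds 4 AMPA, 5 kainate, 7 NMDA, 6 metabotropic and 1 delta glutamate receptor genes, and 12 GABA-A receptor genes. All 35 were found in the tables and all 35 passed the filter on low counts, so that none is missing from the tests over 18875 genes.

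RNA was sequenced from the brains of 16 C57BL/6 mice at postnatal day 32, 1 library per mouse. Dams received lipopolysaccharide (LPS), a bacterial cell wall component that activates the innate immune system, or saline, intraperitoneally on gestation day 16, and male offspring received LPS or saline by the same route at postnatal day 30. The names of the 4 groups, with 4 mice each, put the dam's injection first. Mice called saline-saline received saline at both times and LPS-LPS mice received LPS at both times. LPS-saline mice had prenatal LPS alone, and saline-LPS mice had pubertal LPS alone. The labels do not state which word comes first, and the opposite reading would exchange prenatal and pubertal. Dams and litters are not identified, so littermates may be among the mice, and each p-value reflects spread among these animals, not among litters. Libraries held 25729919 to 38571036 counts assigned to genes.

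Fast excitation in the brain runs mostly through AMPA receptors, with NMDA receptors as coincidence detectors that admit calcium and kainate receptors as modulators on both sides of the synapse. Metabotropic glutamate receptors act through G proteins, and GABA-A receptors are chloride channels that carry most fast inhibition. Subunit choice sets where a receptor sits and how fast it opens and closes: Gabra6 and Grin2c are typical of cerebellar granule neurons, Grin2d of thalamus, midbrain and interneurons, and Gabrd of receptors outside the synapse that respond to ambient GABA.

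The tissue label was checked first, because levels of cerebellar subunits can depend on it. Gabra6, the alpha 6 subunit, lay under 1 CPM (counts scaled to the library total, with TMM factors) in 8 of 16 libraries and between 2.51 and 70.4 CPM in the other 8. Cbln3, a secreted protein made by cerebellar granule cells, was under 1 CPM in the same 8 libraries, at 0.469 to 0.776 CPM, and between 3.20 and 128 CPM in the rest. These 2 genes were thus near 0 in 8 libraries labelled as whole brain, and each group held both kinds of library. The 10 granule cell markers together, some of which other neurons also express, summed to 205 to 225 CPM in those 8 libraries and 232 to 720.5 CPM in the rest. A granule cell score, the centred mean of log2(CPM + 0.5) over 10 marker genes that include no member, ran from -0.88 to 1.54. It was higher in replicates 3 and 4 than in replicates 1 and 2 in every group, although in saline-saline mice replicate 3 was at -0.62, close to replicates 1 and 2, and replicate 4 at 1.25. Summed markers of other hindbrain cells also reached higher values in the libraries with more Cbln3, but the ranges overlapped. The 6 Purkinje cell markers summed to 480 to 526 CPM in the 8 libraries with Cbln3 under 1 CPM and 489 to 880 CPM in the rest. Like the granule cell list, the Purkinje list thus kept a high sum where Cbln3 was near 0. The 8 hindbrain and medulla markers, of which 2 passed the filter and 7 were at 0 in some library, summed to 0.311 to 12.1 and 1.11 to 24.8 CPM. A slope on this score is therefore not specific to granule cells. In addition, LPS-LPS replicate 3 had 503 CPM of Xist and 0 of Ddx3y, unlike the other 15 libraries and unlike its male label. LPS-LPS replicate 1 carried 503 CPM of the pituitary gene Gh, and saline-LPS replicate 1 carried 44.1 CPM. In bulk RNA, fewer cells of a type and less RNA per cell cannot be told apart.

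Starting regions of 4 members are shown because these genes had the steepest slopes on the granule cell score in each direction among members with an entry in the RefSeq promoter table (GRCm38.p6). Each window of 300 bases spans the RefSeq start, with most of it upstream. The windows of Gabra6, Gria4 and Grm2 also hold the first base of the gene in GENCODE M21, while that of Grin2d lies 11.4 kb inside the GENCODE gene. Gabra6 lies at chr11:42321023-42321322, Gria4 at chr9:4796185-4796484, Grin2d at chr7:45866632-45866931 and Grm2 at chr9:106656060-106656359, all on the minus strand. Capitals mark TTGGC or its reverse complement GCCAA, the half-site of nuclear factor I proteins.
Gabra6: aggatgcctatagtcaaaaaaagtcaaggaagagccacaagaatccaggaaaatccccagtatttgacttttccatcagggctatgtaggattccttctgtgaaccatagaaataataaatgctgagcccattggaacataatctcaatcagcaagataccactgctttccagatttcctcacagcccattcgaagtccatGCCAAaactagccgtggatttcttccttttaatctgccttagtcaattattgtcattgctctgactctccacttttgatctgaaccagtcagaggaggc
Gria4: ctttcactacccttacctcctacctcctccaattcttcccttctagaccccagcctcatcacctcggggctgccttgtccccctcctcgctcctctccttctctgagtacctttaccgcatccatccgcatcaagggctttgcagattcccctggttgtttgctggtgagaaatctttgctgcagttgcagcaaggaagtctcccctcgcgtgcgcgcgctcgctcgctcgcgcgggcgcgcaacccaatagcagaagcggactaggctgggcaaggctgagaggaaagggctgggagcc
Grin2d: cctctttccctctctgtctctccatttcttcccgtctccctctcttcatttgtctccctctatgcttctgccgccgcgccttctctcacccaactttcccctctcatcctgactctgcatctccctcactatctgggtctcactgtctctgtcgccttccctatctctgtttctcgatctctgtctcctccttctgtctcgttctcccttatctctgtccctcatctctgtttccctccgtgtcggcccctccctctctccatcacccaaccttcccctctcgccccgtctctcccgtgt
Grm2: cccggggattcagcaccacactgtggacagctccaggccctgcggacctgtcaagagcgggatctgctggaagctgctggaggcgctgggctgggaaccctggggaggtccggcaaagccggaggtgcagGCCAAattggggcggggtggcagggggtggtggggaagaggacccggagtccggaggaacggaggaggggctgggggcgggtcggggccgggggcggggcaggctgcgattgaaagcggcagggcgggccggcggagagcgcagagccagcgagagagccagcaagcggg
The Gabra6 window was 42.0% G and C with 2 CpG dinucleotides, against 59.7% and 17 for Gria4, 56.0% and 12 for Grin2d, and 72.0% and 22 for Grm2. The half-site occurred in the windows of Gabra6 and Grm2 and not in those of Gria4 and Grin2d. Across members, 25 of 35 had an entry, and 15 of their 32 windows held the half-site, where 46.7% of all 32851 windows in the table did. Members without an entry were Gria1, Gria3, Grik1, Grin2a, Grin2b, Grin3a, Grm4, Grm5, Grid1 and Gabrd.

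Several GABA-A genes sit in clusters. Gabrg1, Gabra2, Gabra4 and Gabrb1 follow each other on chromosome 5, where Gabra4 and Gabrb1 stand head to head and share 46 exonic bases. Gabrg3 and Gabra5 lie 20.5 kb apart on chromosome 7, Gabra6 and Gabrb2 lie 98.7 kb apart on chromosome 11 in opposite orientation, and Gabre, Gabra3 and Gabrq are neighbours on the X chromosome. The strand setting of the counting is not given in the sources used here, so reads from antisense overlaps cannot be told apart. This touches Grin3b most, with 32.1% of its exonic bases covered by Tmem259, and then Grin1 (13.5%, Grin1os), Grin2d (9.66%) and Grm2 (9.60%).

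Levels were compared between genes per kilobase of exonic length, over the union of annotated exons, which lowers genes with long rare isoforms. Grik5, a kainate subunit that needs a partner to form a channel, had the highest mean at 70.9 ± 8.47 CPM per kb (SD, n = 16). The AMPA subunit Gria1 followed at 64.7 ± 4.44, and Grin1, the obligatory NMDA subunit, at 50.6 ± 5.56. Gria2, the edited subunit that makes AMPA receptors impermeable to calcium, stood at 34.9 ± 3.83 and the first GABA-A genes, Gabrd and Gabra3, at 25.8 ± 2.02 and 24.1 ± 2.04. At the low end were Gabrq (1.18 to 1.98), Gabre (0.372 to 0.698) and Grin3b (0.151 to 0.384 CPM per kb), 2 rare GABA-A subunits and a glycine-binding NMDA subunit of motor neurons. Of 34 pairs of neighbours in this order, 30 had overlapping ranges over the 16 libraries. The exceptions were Grin1 above Gria2, Grid1 above Grm7, Gabrg3 above Grm8 and Gabrq above Gabre.

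**Figure D1:**
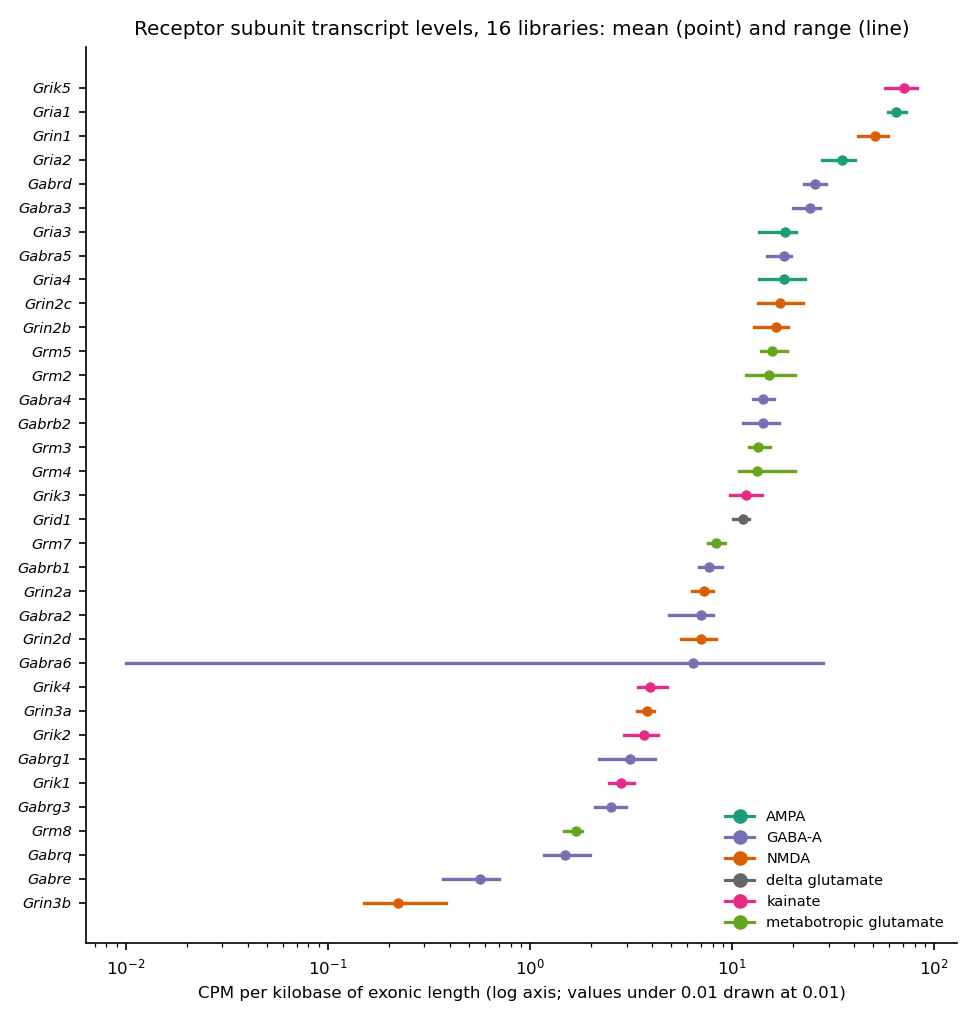
Each point is the mean of 16 libraries in CPM per kilobase of exonic length on a log axis, each line runs from the lowest to the highest library, and colours mark receptor families. Gabra6 has by far the widest range, from 0 (drawn at 0.01) to 28.3 CPM per kb.

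Within families, Gria1 made up 47.7 ± 3.57% of the summed AMPA level per kb and Gria2 25.6 ± 1.79% (SD, n = 16). Grik5 made up 76.0 ± 2.63% of the kainate sum. Among GluN2 subunits, which set NMDA receptor kinetics, Grin2c (35.8 ± 4.83%) and Grin2b (34.4 ± 3.34%) had larger shares than Grin2a (13.1 to 17.5%) and Grin2d (11.7 to 17.0%). Grin2b, which has 24842 exonic bases in the annotation, is the member most lowered by this scaling. Grin2a has 17933 exonic bases and Grin2c 5037, so their order depends on the scaling too. Mean CPM without it was 409 for Grin2b, 129 for Grin2a, 86.6 for Grin2c and 46.7 for Grin2d. Of the 5 alpha subunits in the set, Gabra3 had the largest mean share, at 27.5 to 39.6% over the libraries, while the share of Gabra6 ran from 0 to 31.5%.

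Spread within groups was largest for Gabra6, with an SD of 3.19 on the log2 scale after group means were removed. Its neighbours in that order, Grm4 at 0.33 and Gabrg1 at 0.26, were far lower. Gabrb1 was the steadiest at 0.06. The median over the 35 members was 0.16, beside 0.15 over all tested genes.

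The comparison of prenatal LPS with prenatal saline, averaged over the pubertal injection (8 mice against 8), asks whether receptor transcripts differ in young mice exposed before birth. Only 2 of 35 members passed an adjusted p of 0.05, where 7.82% of all tested genes did. Gabrd was higher and Gabrb1 was lower after prenatal LPS, where 4.90% of all genes were higher and 2.92% lower.

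Gabrd, the delta subunit of extrasynaptic GABA-A receptors, had 70.7, 66.1, 64.9 and 69.9 CPM in saline-saline mice and 79.6, 80.8, 74.7 and 84.1 CPM in LPS-saline mice. It had 66.7, 73.2, 79.7 and 70.2 CPM in saline-LPS mice and 71.7, 75.9, 79.9 and 76.8 CPM in LPS-LPS mice. The LPS-saline mice were all above the saline-saline mice, while saline-LPS and LPS-LPS mice overlapped. Averaged, the mean was 77.9 ± 3.93 against 70.2 ± 4.72 CPM (SD, n = 8 each), a log2 fold change of 0.15 ± 0.04 (SE; edgeR quasi-likelihood test, Benjamini-Hochberg adjusted p = 0.0326) or 1.11-fold.

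Gabrb1, a beta subunit of which neurons and glia make transcripts, had 109, 123, 116 and 117 CPM in saline-saline mice and 106, 94.9, 104 and 103 CPM in LPS-saline mice. In saline-LPS mice it had 109, 106, 101 and 106 CPM and in LPS-LPS mice 104, 105, 97.9 and 99.7 CPM. The saline-saline mice were the highest group and overlapped with none of the other 3 groups. The averaged log2 fold change was -0.12 ± 0.04 (adjusted p = 0.0470). On the log2 scale per kb, Gabrd exceeded Gabrb1 by 1.37 to 1.64 in saline-saline mice and 1.79 to 2.04 in LPS-saline mice. The values were 1.56 to 1.92 in saline-LPS mice and 1.74 to 1.97 in LPS-LPS mice. This ratio joins the called genes, which moved in opposite directions, so it is a description and no separate result. It was not corrected for the trend with exonic length described below.

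Both calls were near the threshold. Gabrd passed in 6 of 16 fits that each left out 1 library, and Gabrb1 in 2 of 16. No member passed without saline-saline replicate 3 or 4, LPS-saline replicate 1, 2 or 4, saline-LPS replicate 1, or LPS-LPS replicate 4. Exonic length moved with this comparison: over 12394 genes the fold change had a Spearman correlation of -0.53 with exonic length, given as a description since genes are not replicates. Within libraries, the trend of deviations from the mean on length was negative in 8 of 8 prenatal LPS libraries (-0.46 to -0.07) and in 2 of 8 prenatal saline libraries (-0.05 to 0.43). Gabrb1 is long at 13838 exonic bases and Gabrd short at 2875, and the members' median was 6305 against 3827 over all tested genes. With GC content and length corrected in each library, the values were -0.01 (adjusted p = 0.891) for Gabrb1 and 0.10 (adjusted p = 0.237) for Gabrd, and only Gabra2 passed, at 0.19 (adjusted p = 0.0388). With the replicate number as a block, Grik5 (adjusted p = 0.0378), Grin2a (adjusted p = 0.0295) and Gabrq (adjusted p = 0.0167) passed as well. Summed markers of other regions also differed between groups. Hippocampal and dentate markers were at 327 to 355 CPM in saline-saline mice, 291 to 311 in LPS-saline, 286 to 362 in saline-LPS and 284 to 306 in LPS-LPS mice. Thalamic and midbrain markers were at 216 to 239, 154 to 213, 168 to 261 and 139 to 177 CPM in the same order. No marker of these 2 lists was at 0 in any library, and their part in the result was not tested.

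**Figure D2:**
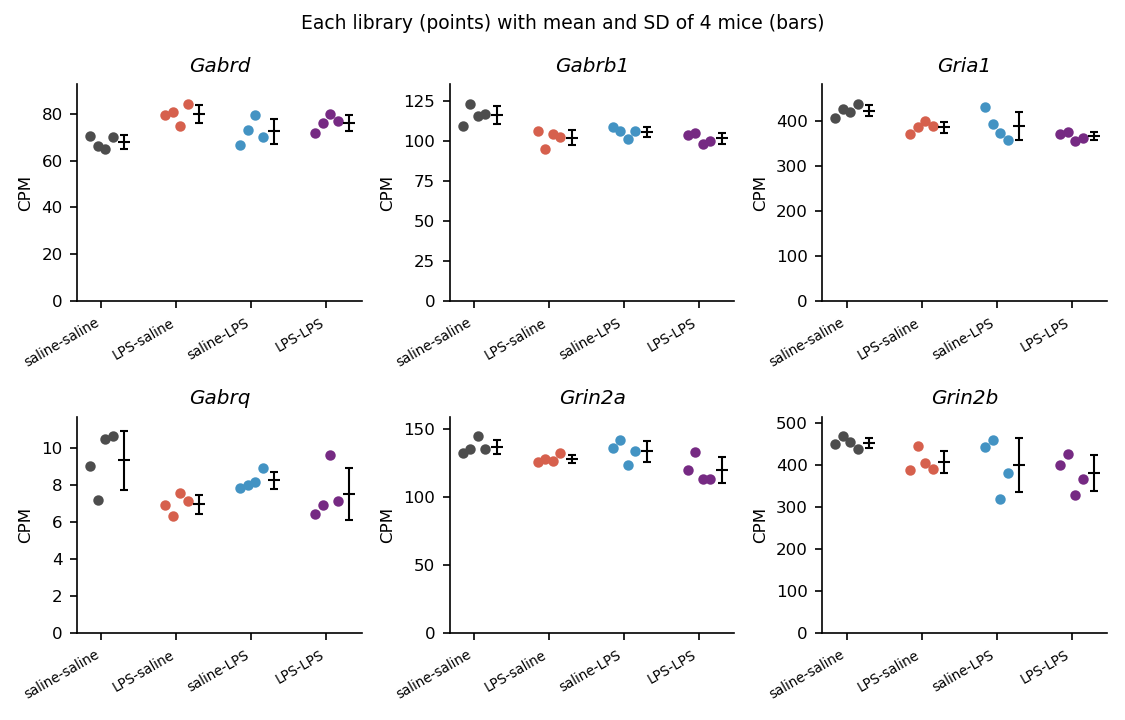
CPM of 6 members in each library (points) by group, with the mean and SD of 4 mice (bars), on axes that start at 0. LPS-saline mice lie above saline-saline mice for Gabrd (74.7 to 84.1 against 64.9 to 70.7 CPM), and saline-saline mice lie highest for Gabrb1.

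No other member passed. The nearest were Gabrq, the theta subunit, at -0.28 ± 0.09 (adjusted p = 0.0610), and Grin2a, the GluN2 subunit that accumulates after birth, at -0.13 ± 0.04 (adjusted p = 0.0616). Among AMPA genes the values ran from -0.11 (Gria1, adjusted p = 0.0955) to 0.07 (Gria3). Kainate genes ran from -0.12 (Grik3) to 0.16 (Grik5, adjusted p = 0.192), and metabotropic genes from -0.12 (Grm3) to 0.18 (Grm2, adjusted p = 0.203). Of the subunits set apart as cerebellar, Gabra6 was at -0.11 ± 1.38 and Grin2c at 0.01 ± 0.11. Their 95% intervals were -2.81 to 2.59 and -0.21 to 0.24, in that order. Changes of several fold in Gabra6 were therefore not detectable. Over the 8 injection comparisons Gabra6 and Grin2c had no adjusted p below 0.892. The member median was -0.01, as was that of all genes, and 12 of 35 members were above 0, beside 48.3% of all genes. No member and 0.906% of all genes had values that did not overlap between the 2 sets of 8 mice.

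**Figure D3:**
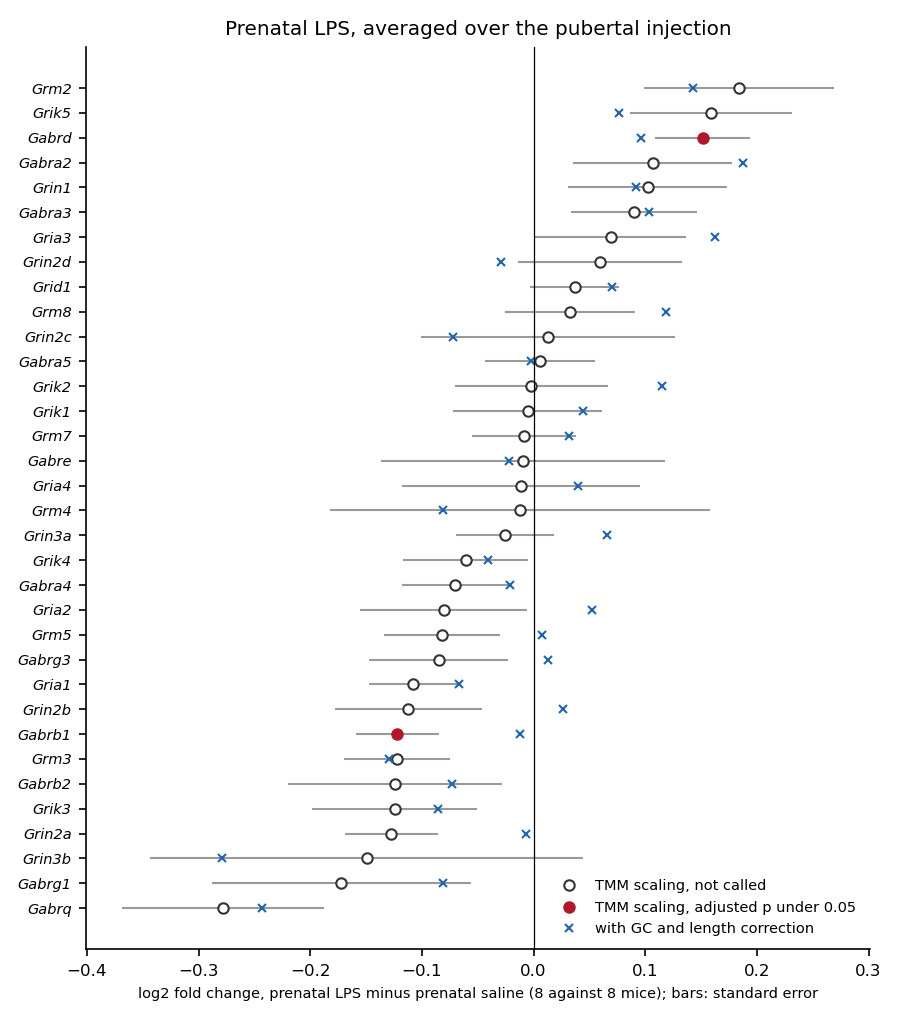
Log2 fold change of prenatal LPS minus prenatal saline for 34 members (points) with standard errors (lines) and the value after GC and length correction (crosses). Gabra6 is not drawn because its standard error of 1.38 exceeds the axis. The 2 filled points are Gabrd and Gabrb1, and the cross for Gabrb1 lies near 0.

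LPS-saline mice were compared with saline-saline mice, the prenatal effect without a pubertal one. No member passed, at 0.180% of all genes, while 4 members had an unadjusted p under 0.05 (13.2% of all genes) and DESeq2 called 3 (2.27% of all genes). Gabrd was at 0.23 ± 0.06 (adjusted p = 0.0817), Gabrb1 at -0.19 ± 0.05 (adjusted p = 0.105) and Gabrq at -0.42 ± 0.13 (adjusted p = 0.138). Gabrq levels were 9.03, 7.19, 10.5 and 10.6 CPM in saline-saline and 6.88, 6.30, 7.53 and 7.11 CPM in LPS-saline mice. The groups overlapped through the saline-saline mouse at 7.19 CPM. The groups did not overlap for Gria1, Grin2a, Gabrb1 and Gabrd, which is 4 of 35 members against 9.12% of all genes. With the replicate number as a block, Gabrd and Gabrq passed (adjusted p = 0.0403 each). Without saline-LPS replicate 1, 1 member passed, Gabrd at an adjusted p of 0.0298.

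Against the same prenatal contrast in mice given LPS at day 30 (LPS-LPS against saline-LPS), no member passed, beside 0.609% of all genes. An unadjusted p under 0.05 was reached by 2 members and 14.0% of all genes, and DESeq2 called 0 members and 2.18% of all genes. Grin2a was at -0.16 ± 0.06 (adjusted p = 0.231), Grm3, a group II receptor of neurons and astrocytes, at -0.17 ± 0.07 (adjusted p = 0.267) and Grik5 at 0.19 ± 0.10 (adjusted p = 0.410). Grm3 alone did not overlap, at 47.1, 41.3, 42.0 and 44.9 CPM in saline-LPS mice and 39.8, 38.6, 36.9 and 41.1 CPM in LPS-LPS mice, where 7.94% of all genes did not.

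Mice given LPS at both times were compared with mice given saline at both times. Gria1 and Gabrb1 fell, 2 of 35 members beside 6.56% of all genes (4.27% higher and 2.29% lower). Gria1, the AMPA subunit inserted into synapses during potentiation, had 407, 425, 421 and 437 CPM in saline-saline mice and 370.0, 376, 355 and 363 CPM in LPS-LPS mice, with no overlap. It had 370.2, 386, 399 and 388 CPM in LPS-saline mice and 431, 393, 372 and 357 CPM in saline-LPS mice, between the other groups or overlapping with them. The log2 fold change of Gria1 was -0.21 ± 0.06 (adjusted p = 0.0298) and that of Gabrb1 -0.19 ± 0.05 (adjusted p = 0.0312). This comparison shares its control mice with the LPS-saline comparison above. Neither gene passed without saline-saline replicate 2 or 4 or LPS-LPS replicate 1, 3 or 4, and without saline-LPS replicate 3 there were 4 calls. After GC and length correction Gria1 was at -0.15 (adjusted p = 0.0741) and Gabrb1 at -0.05 (adjusted p = 0.647), and no member passed.

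In this comparison 7 members did not overlap between the groups, where 17.4% of all genes did not: Gria1, Grik3, Grik5, Grin2b, Grm2, Gabrb1 and Gabrd. Grin2b, the juvenile GluN2 subunit with the longest exonic sequence of the set, had 448, 467, 454 and 437 CPM in saline-saline mice and 399.7, 426, 328 and 367 CPM in LPS-LPS mice. Its log2 fold change was -0.25 ± 0.09 (adjusted p = 0.115), and -0.07 (adjusted p = 0.728) after correction for GC and length. Grin2a was at -0.19 ± 0.06 (adjusted p = 0.0538). With the replicate block, Grin2a, Grin2b and Grik4 passed as well (adjusted p = 0.0224, 0.0170 and 0.0430).

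Pubertal LPS, given 2 days before collection, was compared in the 2 prenatal settings and on average, and the interaction asked whether prenatal LPS altered its effect. The edgeR test called no member in these 4 comparisons, and called 0% of all genes. An unadjusted p under 0.05 was reached by 3 members in saline-LPS against saline-saline, 0 in LPS-LPS against LPS-saline, 2 on average and 0 for the interaction, and DESeq2 called 0 members in each. Over all genes, 402 to 947 had an unadjusted p under 0.05 and DESeq2 called 0 to 9. In saline-LPS against saline-saline mice, Gabrb1 was at -0.14 ± 0.05, Grik4 at -0.18 ± 0.08 and Gria1 at -0.12 ± 0.06, each with an adjusted p of 1.00. In LPS-LPS against LPS-saline mice, Grik4 was at -0.14 ± 0.08, Grin2a at -0.09 ± 0.06 and Gria1 at -0.08 ± 0.06, again at 1.00.

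Averaged over the prenatal injection, Grik4, a kainate subunit of the hippocampal CA3 region, was at -0.16 ± 0.06 (adjusted p = 0.908). Gria1 was at -0.10 ± 0.04 and Grin2b at -0.14 ± 0.07 (adjusted p = 0.951 each). Grik4 had 24.5, 23.8, 24.1 and 24.0 CPM in LPS-saline mice and 22.6, 22.9, 21.7 and 20.4 CPM in LPS-LPS mice, the only member without overlap there, beside 3.73% of all genes. Gabrb1 was the only one in saline-LPS against saline-saline, beside 1.54%, and none was on average, beside 0.00530%. For the interaction the smallest p-values belonged to Gabrd (-0.16 ± 0.08), Grin3b (-0.73 ± 0.39) and Gabrb1 (0.13 ± 0.07), at an adjusted p of 1.00 each. The median SE of a member in a comparison of 2 groups was 0.10 on the log2 scale and differences above that size, such as those of Grik4 and Gabrb1 given above, did not pass either.

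The slope of each member on the granule cell score, fitted with the 4 groups in the model, described how subunits varied among libraries of 1 group. The test called 12 of 35 members, with 6 rising and 6 falling, where 20.0% of all genes were called, 9.96% rising and 10.0% falling. Slopes are log2 changes per unit of score, and the score spans 2.42 units over these libraries.

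Gabra6 rose by 3.34 ± 0.31 (SE; adjusted p = 4.98e-05), or 10.1-fold per unit. It had 0.134, 0.0597, 0.277 and 44.4 CPM in saline-saline mice, 0.0678, 0.104, 17.0 and 52.7 in LPS-saline mice, 0, 0.0375, 70.4 and 19.5 in saline-LPS mice and 2.51, 0.0659, 17.1 and 30.2 in LPS-LPS mice. The 0 in saline-LPS replicate 1 allows up to 0.0931 CPM at 3 counts. Gabra6 was at 17.0 CPM or more in the 7 libraries with a score above 0 and at 2.51 CPM or less in the other 9, and every group held libraries of both kinds.

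Grm4, the presynaptic group III receptor of parallel fibres, had 64.8, 64.5, 65.9 and 108 CPM in saline-saline mice, 65.2, 64.6, 74.7 and 122 in LPS-saline mice, 77.6, 66.9, 113 and 72.4 in saline-LPS mice and 71.7, 68.4, 77.1 and 84.8 in LPS-LPS mice. Its slope was 0.31 ± 0.04 (adjusted p = 5.37e-05). Unlike Gabra6, Grm4 kept at least 64.5 CPM in the libraries with low scores. Gria4, an AMPA subunit of fast synapses, had 96.6, 106, 115 and 133 CPM in saline-saline mice, 105, 97.8, 115 and 141 in LPS-saline, 85.2, 103, 144 and 130.0 in saline-LPS and 108, 104, 115 and 121 in LPS-LPS mice. Its slope was 0.21 ± 0.03 (adjusted p = 3.82e-06). The other members that rose were Gabrg1 (0.18, adjusted p = 0.0187), Gabrb2 (0.16, adjusted p = 0.00401), whose gene lies beside Gabra6, and the kainate gene Grik2 (0.13, adjusted p = 0.00166).

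The 6 members that fell as the score rose were 3 NMDA genes, 2 kainate genes and a metabotropic gene. Grin2d, named above for thalamus and midbrain, fell by 0.16 ± 0.02 per unit (adjusted p = 0.000136), from 55.5 CPM in the highest library to 37.1 in the lowest, which had the highest score. Grm2, a presynaptic group II receptor, fell by 0.15 (adjusted p = 0.00206), Grik5 by 0.15 (adjusted p = 0.000197), Grin1 by 0.14 (adjusted p = 0.000190), Grin2b by 0.12 (adjusted p = 0.00305) and Grik4 by 0.08 (adjusted p = 0.0465). Grin1 had 476, 479, 482 and 441 CPM in saline-saline mice and 545, 572, 436 and 421 in LPS-saline mice, and was lower in the libraries of those groups with high scores.

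Grin2c, which granule cells take up as they mature, had 73.1, 92.5, 67.6 and 100.1 CPM in saline-saline mice, 86.5, 80.2, 78.8 and 107 in LPS-saline, 96.9, 77.3, 112 and 70.0 in saline-LPS and 78.1, 77.7, 87.3 and 101 in LPS-LPS mice. It did not pass, at 0.15 ± 0.05 (adjusted p = 0.0771). Its range was 67.6 to 96.9 CPM in the 8 libraries with Gabra6 under 1 CPM. In the other 8 it was 70.0 to 112 CPM, so the ranges of Grin2c overlapped. Like Grm4, Grin2c thus kept a base level, at least 67.6 CPM, in libraries with hardly any Gabra6. Its transcripts in these data were therefore not confined to libraries with granule cell transcripts. These sets of libraries were defined by Gabra6 itself, whose own ranges therefore cannot overlap.

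**Figure D4:**
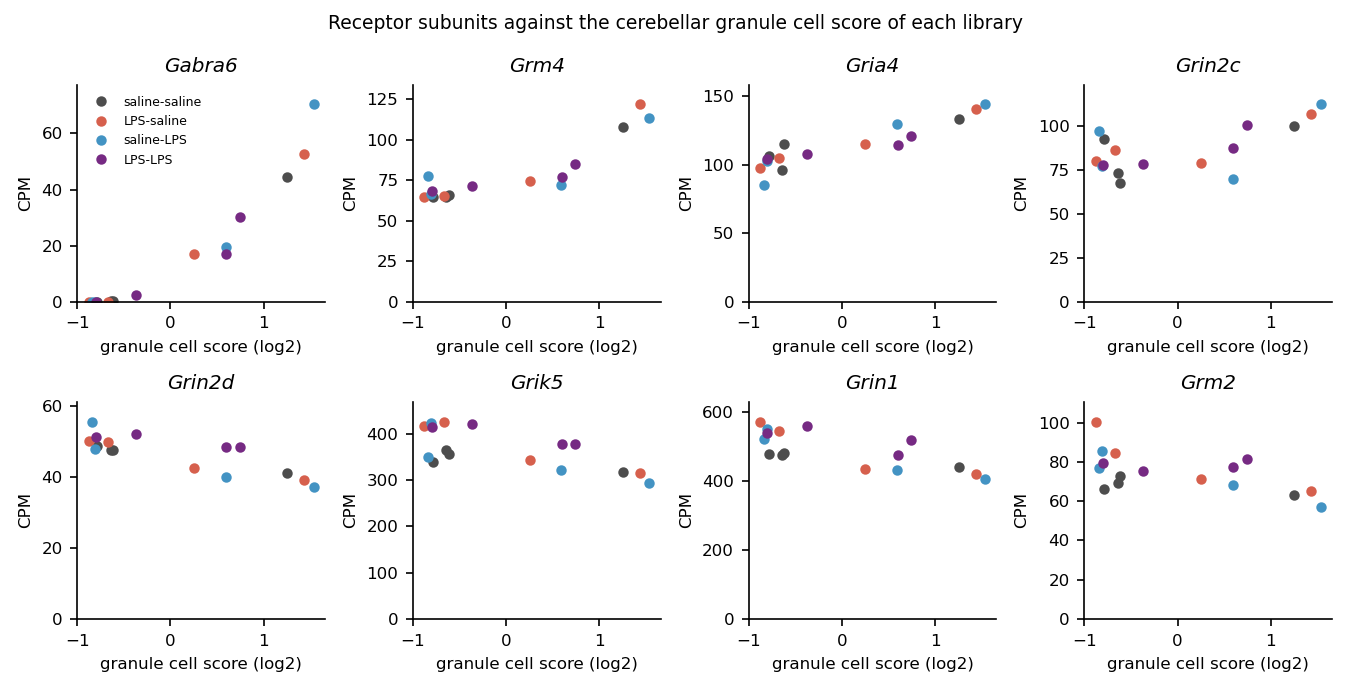
CPM of 8 members against the granule cell score of each of the 16 libraries, coloured by group, with the CPM axis from 0. Gabra6 leaves 0 as the score rises and reaches 70.4 CPM, Grm4 and Gria4 rise from a base, Grin2c scatters, and the 4 lower panels fall.

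GC content moved with these slopes. Over 12394 genes the slope had a Spearman correlation of -0.59 with the GC content of the longest transcript. The median GC content was 41.9% for the 6 members that rose, 58.2% for the 6 that fell and 47.1% for the 23 not called. Grm4 rose at a GC content of 61.7%. With GC and length corrected, 8 of the 12 calls were kept, 4 rising (Gabra6, Grm4, Gria4 and Gabrb2) and 4 falling (Grin2d, Grin1, Grik5 and Grin2b). Grin2c then passed at 0.20 (adjusted p = 0.0184), Gabrd at 0.07 (adjusted p = 0.0198) and Gabrb1 at -0.06 (adjusted p = 0.0446), while Grik2, Grik4, Grm2 and Gabrg1 did not. With the replicate number as a block, which largely coincides with the score, only Grm4 passed, at an adjusted p of 0.0174. Grik4 passed in 3 of 16 fits without 1 library. Gabrg1 lost its call without saline-LPS replicate 1 or 3.

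Genes that act with these receptors were described from 4 lists. After prenatal LPS on average, where 4.90% of all genes were higher and 2.92% lower, 3 of 22 partners of AMPA and kainate receptors were higher and none lower: Olfm1 (0.25, adjusted p = 0.00460), and the auxiliary subunits Cnih3 (0.25, adjusted p = 0.0236) and Cnih2 (0.19, adjusted p = 0.0337). Of 18 GABA genes, the trafficking gene Gabarap was higher (0.18, adjusted p = 0.0212) and the GABA transaminase gene Abat lower (-0.17, adjusted p = 0.0159). Of 9 genes of glutamate release and uptake, the vesicular transporter Slc17a7 was higher (0.17, adjusted p = 0.0420), and the glial transporter Slc1a2 (-0.22, adjusted p = 0.0156) and Slc17a8 (-0.42, adjusted p = 0.0462) were lower. None of 21 scaffold genes passed. List medians lay between -0.06 and 0.01, beside -0.01 over all genes. After GC and length correction, Olfm1 (adjusted p = 0.0228) and Gabarap (adjusted p = 0.0355) still passed and the other 6 did not. The corrected values of the 6 were -0.40 for Slc17a8, 0.21 for Cnih3, 0.14 for Slc17a7, -0.12 for Slc1a2, -0.11 for Abat and 0.05 for Cnih2.

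In LPS-LPS against saline-LPS mice, Olfm1 alone passed (0.31, adjusted p = 0.0385), where 0.609% of all genes did. In LPS-LPS against saline-saline mice, where 6.56% of all genes passed, Olfm1 (0.25, adjusted p = 0.0290), the AMPA auxiliary subunit gene Cacng3 (0.23, adjusted p = 0.0485) and Gabarap (0.25, adjusted p = 0.0259) were higher and Shisa6 was lower (-0.76, adjusted p = 0.0337). None of these calls was kept after GC and length correction: the adjusted p of Olfm1 was 0.108 in the first comparison and 0.118 in the second, and in the second Cacng3 had 0.174, Gabarap 0.0584 and Shisa6 0.0668. No gene of the 4 lists passed in the other 5 injection comparisons.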

How the data were processed

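The deposited files hold raw read counts per Ensembl gene. Per the submitters' processing notes, the tools were STAR (2.5.2b) for alignment and HTSeq (0.11.2) for counting, and the build was GRCm38. Neither strand setting nor annotation release is given in the sources used here. Symbols, exonic lengths and GC content came from GENCODE M21 (49412 of 49671 identifiers matched). Length was that of the union of exons, and GC content that of the longest transcript of each gene. The 5 special entries of each table were left out: reads without a gene were 8.37 to 11.0% of all counts.

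Counts of 16 libraries (25729919 to 38571036 gene counts) were filtered with filterByExpr, TMM-scaled and fitted in edgeR 4.0.16 (R 4.3.3; robust quasi-likelihood, 4 groups in 1 fit). P-values are two-sided and Benjamini-Hochberg adjusted over 18875 genes, with a threshold of 0.05. The slope fit added the granule cell score, and the GC and length correction used per-library spline offsets (4 degrees of freedom). Alternatives included DESeq2 1.42.0 and leaving out each library. The tests were checked on simulated data. Members, lists and alternatives were chosen with earlier results of these data known. Named were all called members, Gabra6 and Grin2c, the 3 smallest p-values where none was called, and up to 4 called genes per list, of which 1 is not reported here.

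Same-numbered libraries were checked for pairing. Over 12418 genes with a mean log2 CPM above 2, the correlation of their deviations was 0.19 to 0.65 for saline-saline with LPS-saline, 0.30 to 0.40 for saline-LPS with LPS-LPS, and 0.03 to 0.38 for saline-saline with LPS-LPS. The other pairs of groups gave similar values. These were 0.07 to 0.38 for saline-saline with saline-LPS, 0.21 to 0.36 for LPS-saline with LPS-LPS and 0.26 to 0.49 for LPS-saline with saline-LPS. Over all 18875 genes the range for saline-saline with LPS-saline started at 0.08, and the level of 2 was picked after 5 had been computed. The labels do not say what a number marks, so pairing is uncertain.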

Additional observations from a re-analysis of the deposited data

Results flagged for a closer look

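In groups of 4 mice, each member was searched for a library that lay far from the other 3 (Dixon's test at the 95% level). This gave 7 of 140 groups, or 5.0%, where chance gives about 5%. Saline-saline replicate 4, the library of that group with a high granule cell score, stood apart for 4 members: Gabra6 at 44.4 CPM (others at most 0.277), Grm4 at 108 CPM (others 64.5 to 65.9), Grin1 at 441 CPM (others 476 to 482) and Grin2d at 41.1 CPM (others 47.6 to 48.7). Gria2 stood at 433 CPM in saline-saline replicate 1, with the others at 593 to 604. Grm8, a presynaptic group III receptor, stood at 15.8 CPM in LPS-LPS replicate 4, with the others at 17.6 to 18.0. Gabrg1 stood at 17.3 CPM in LPS-saline replicate 2, with the others at 23.4 to 23.8.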

How the results depend on the processing

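The number of members called under prenatal LPS on average (2) was 5 with DESeq2, 1 without the filter on low counts, 1 with the GC and length correction, 5 with the replicate block, 7 with the granule cell score as a covariate, and 0 to 3 without 1 library. For LPS-saline against saline-saline (0) it was 3 with DESeq2, 2 with the replicate block, 3 with the score as a covariate and 0 to 1 without 1 library. For LPS-LPS against saline-saline (2) it was 1 without the filter, 0 with the GC and length correction, 5 with the replicate block, 1 with the block and the correction together, 8 with the score, 8 with only the 2 groups fitted, and 0 to 4 without 1 library. For the slope on the score (12) it was 1 with the replicate block, 1 with the block and the correction, and 11 to 14 without 1 library. The other 5 comparisons had 0 members called in every alternative run. The replicate block changed no other count by over 1.5 times. The causes of these shifts were not tested. Gabra6 under prenatal LPS (-0.11) was 0.036 with the replicate block, 0.051 with block and correction, 0.87 with the score as a covariate and -0.89 to 2.93 without 1 library, with the highest value without saline-saline replicate 4. Grin2c (0.01) was -0.073 with the correction, -0.081 with block and correction and -0.039 to 0.078 without 1 library. The slope of Gabrg1 (0.18) was -0.023 with block and correction. Depth limits Gabra6 in 8 libraries and Grin3b, which had 15 to 39 counts per library.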

Other observations

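Partner genes also differed along the granule cell score, where 20.0% of all genes were called. Of 21 scaffold genes of glutamate synapses, 10 fell and 2 rose. Among them, Dlgap3 (-0.16, adjusted p = 0.000192) and Dlgap4 (-0.14, adjusted p = 0.000314) fell, while Homer3, a scaffold of Purkinje cells, rose by 0.42 (adjusted p = 0.000143). Of 22 AMPA and kainate receptor partners, 6 fell, among them Shisa7 (-0.19, adjusted p = 0.000329) and Cacng8 (-0.14, adjusted p = 0.00122), and Neto2, an auxiliary subunit of kainate receptors, rose (0.17, adjusted p = 0.000143). Of 18 GABA genes 4 rose and 4 fell, and of 9 release and uptake genes 4 rose and 1 fell. Slc1a6, the glutamate transporter of Purkinje cells, had the smallest p of the latter list (0.37, adjusted p = 4.60e-07), and Slc17a7 fell (-0.09, adjusted p = 0.00309). With GC and length corrected, Dlgap3, Dlgap4, Homer3, Shisa7, Cacng8, Neto2 and Slc1a6 still passed, and Slc17a7 did not (adjusted p = 0.297).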
